A study of Mus musculus with 18 samples.

Results

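Transcripts of 10 dual-specificity phosphatases that act on, or are closely related to those that act on, mitogen-activated protein kinases (MAPKs) were followed across 6 genotypes of cultured mouse microglia. The members were Dusp1, Dusp2, Dusp3, Dusp4, Dusp5, Dusp6, Dusp7, Dusp10, Dusp16 and Dusp22, taken by gene identity as 10 of the 50686 gene identifiers in the count table. They were chosen by gene identity with their CPM values per library in view, and no value set a threshold. CPM stands for counts per 1000000, scaled between libraries. The rise of Dusp1 and Dusp5 in Tbk1het Tak1het against WT was known when the list was drawn up, so it is given here as a description and supports nothing else. All 10 had enough reads to be among the 13447 genes tested.

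The study used primary microglia, the resident macrophages of the brain, from C57BL/6 pups at postnatal day 2. Forebrain cells were kept in flasks for 7 days and, after new medium, for 7 more before microglia were shaken off and cultured. The 6 genotypes, with 3 libraries each, were Tbk1+/-;Tak1ΔM/+ (here Tbk1het Tak1het), Tbk1+/-;Tak1ΔM/+;Ripk1D138N/+ (Tbk1het Tak1het Ripk1het), Tbk1+/- (Tbk1het), Tbk1+/-;Ripk1D138N/D138N (Tbk1het Ripk1hom), Tak1ΔM/+ (Tak1het) and WT. TBK1 and TAK1 are kinases that hold back RIPK1 after engagement of the tumor necrosis factor receptor, TAK1 also switches on JNK, p38 and NF-kB signaling, and D138N removes the kinase activity of RIPK1. The labels do not say what ΔM stands for or which cells recombine the Tak1 allele. Separate animals or cultures are not stated for the 3 libraries of any genotype, and the p-values then measure only a spread that may be technical.

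MAPKs are switched on by phosphorylation of a threonine and a tyrosine in their activation loop. Dual-specificity phosphatases remove both phosphates and so end the signal. Many of their genes are themselves switched on by the pathway they end, which makes their RNA a trace of recent signaling and a brake on it. In macrophages DUSP1 limits p38 and JNK and with them the output of inflammatory cytokines. The family divides by place and target: DUSP1, DUSP2, DUSP4 and DUSP5 are inducible nuclear enzymes, DUSP6 and DUSP7 are cytoplasmic enzymes with a preference for ERK, DUSP10 and DUSP16 prefer JNK and p38, and DUSP3 and DUSP22 are small enzymes that lack the MAPK-docking domain of the others.

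Promoter windows from 250 bases before to 50 bases after the annotated start were found in RefSeq (build GRCm38.p6) for 9 of the 10 members. The 3 windows printed here belong to the pair of members whose RNA was highest in all Tbk1het Tak1het libraries, Dusp1 and Dusp5, and to Dusp6, an abundant member without that pattern. All are written 5′ to 3′ on the strand of the gene, and capitals mark matches to the motifs searched. The windows are chr17:26508423-26508722 on the minus strand for Dusp1, chr19:53528895-53529194 on the plus strand for Dusp5 and chr10:99262981-99263280 on the plus strand for Dusp6.
Dusp1: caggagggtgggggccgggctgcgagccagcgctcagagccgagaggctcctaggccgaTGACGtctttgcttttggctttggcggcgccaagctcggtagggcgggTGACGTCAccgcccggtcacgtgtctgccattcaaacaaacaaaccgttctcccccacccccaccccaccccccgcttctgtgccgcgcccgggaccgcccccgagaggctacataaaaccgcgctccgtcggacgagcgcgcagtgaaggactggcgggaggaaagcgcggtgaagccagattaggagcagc
Dusp5: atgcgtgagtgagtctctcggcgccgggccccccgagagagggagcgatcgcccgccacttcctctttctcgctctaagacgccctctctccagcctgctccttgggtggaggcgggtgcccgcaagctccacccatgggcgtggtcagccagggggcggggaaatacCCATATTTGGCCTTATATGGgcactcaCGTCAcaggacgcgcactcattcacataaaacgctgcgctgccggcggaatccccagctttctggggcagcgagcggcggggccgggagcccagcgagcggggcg
Dusp6: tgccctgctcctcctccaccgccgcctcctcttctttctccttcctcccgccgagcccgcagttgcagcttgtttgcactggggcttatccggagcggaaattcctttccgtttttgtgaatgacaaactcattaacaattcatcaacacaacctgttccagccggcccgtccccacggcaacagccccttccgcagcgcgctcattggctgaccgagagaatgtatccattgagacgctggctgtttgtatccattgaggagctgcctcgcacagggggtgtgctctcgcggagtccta
In total 5 motifs were searched on both strands: the cAMP response element TGACGTCA, its core TGACG, the AP-1 site TGANTCA, the serum response element and the NF-kB site by their usual consensus. The core lies within the full cAMP element, so those matches overlap. The Dusp1 window held 1 full cAMP element, with its first base at -143 from the start, and 3 cores, at -191, -143 and -140, of which the last 2 are the same element read on both strands. The Dusp5 window held 2 serum response elements side by side, at -82 and -72, and 1 core at -55. The Dusp6 window held none of the 5 motifs. Among all 32851 RefSeq promoter windows of this length, 1.79% held the full cAMP element, 20.8% its core, 1.63% a serum response element, 7.81% an AP-1 site and 8.46% an NF-kB site. Of the other windows, that of Dusp2 held a core at 6, that of Dusp16 a core at -70 and that of Dusp22 overlapping NF-kB matches at -240 and -239. A match describes letters, not binding.

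Total counts ranged from 8016559 to 22989116 per library, and 15548 to 17433 genes had counts. The microglia and macrophage markers were present, with Csf1r at 1619 to 2658 CPM and Trem2 and Tyrobp also high, while the resting microglia markers P2ry12 (2.97 to 17.4 CPM) and Tmem119 (1.45 to 6.56 CPM) were low in all 18 libraries. The summed level of the 10 microglia and macrophage markers was 6225 to 6787 CPM in Tbk1het Tak1het and 6747 to 7372 CPM in WT. Of these 10 markers 0 were called higher and 2 lower in that comparison, named here after their values were seen: Itgam (42.8 ± 1.32 CPM in Tbk1het Tak1het, 82.2 ± 13.9 CPM in WT) and Ptprc (255 ± 32.6 CPM in Tbk1het Tak1het, 450.4 ± 44.5 CPM in WT). Markers of border macrophages and monocytes summed to 491 to 527 CPM in Tbk1het Tak1het and to 444 to 651 CPM in WT, with 0 of 6 tested called, and Ly6c2 was at 0 in Tbk1het Tak1het. Markers of neurons (4.23 to 6.57 CPM in Tbk1het Tak1het, 4.71 to 13.98 CPM in WT) and of astrocytes (20.9 to 29.5 CPM in Tbk1het Tak1het, 43.3 to 56.0 CPM in WT) were far lower than those of microglia, as were markers of the oligodendrocyte lineage (71.6 to 84.7 CPM in Tbk1het Tak1het, 62.2 to 73.3 CPM in WT, with Mog at 0 in both). Markers of fibroblasts, mural and endothelial cells summed to 4.03 to 5.48 CPM in Tbk1het Tak1het and 10.7 to 45.8 CPM in WT, without overlap, and 0 of their 5 tested genes were called. Of the markers of other blood cells, S100a8 was called lower, at 0.599 ± 0.459 CPM in Tbk1het Tak1het and 3.02 ± 0.854 CPM in WT. The part of these cell markers in the results below was not tested. Tbk1 RNA was 59.2 ± 5.97 CPM (SD, n = 3) in Tbk1het Tak1het and 57.7 ± 7.55 CPM in Tbk1het, against 119 ± 25.6 CPM in WT. It was 115 ± 7.93 CPM in the libraries labelled Tbk1het Tak1het Ripk1het and 130 and 131 CPM in replicates 1 and 3 labelled Tbk1het Ripk1hom. These 5 libraries carry a Tbk1+/- label with Tbk1 in the WT range, and every direction drawn from them below carries that limit. Map3k7, the gene of TAK1, was at 15.8, 11.4 and 6.57 CPM in Tbk1het Tak1het, 9.98, 8.96 and 7.34 CPM in Tak1het and 10.95, 10.4 and 19.2 CPM in WT. It was not called in Tbk1het Tak1het against WT (log2 fold change -0.27, edgeR adjusted p = 0.714), so its RNA level gives no check of the Tak1 label. Ripk1 was at 48.99, 55.8 and 70.98 CPM in Tbk1het Tak1het and 19.1, 16.97 and 23.8 CPM in WT (log2 fold change 1.55, edgeR adjusted p = 0.0433), and this call was lost in 6 of 6 fits without 1 library. Lyz2, a lysozyme gene of myeloid cells, was at 8346 ± 503 CPM in Tbk1het Tak1het, 40526 ± 2158 CPM in the libraries labelled Tbk1het Tak1het Ripk1het, 18291 ± 4082 CPM in Tak1het and 37149 ± 2162 CPM in WT. Mitochondrially encoded genes took 0.463% ± 0.0824 of counts in Tbk1het Tak1het, 0.839% ± 0.406 in the libraries labelled Tbk1het Tak1het Ripk1het, 2.01% ± 0.191 in Tbk1het, 1.12% ± 0.583 in Tak1het and 1.24% ± 0.499 in WT.

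The members covered a wide range of levels. Per kilobase of exon, averaged over 18 libraries, Dusp3 was the most abundant at 49.7 CPM per kb, followed by Dusp6 at 30.1, Dusp1 at 15.1, Dusp7 at 6.92, Dusp4 at 4.33, Dusp22 at 3.14, Dusp5 at 2.53 and Dusp16 at 1.51 CPM per kb. Dusp10, at 0.636 CPM per kb, and Dusp2, at 0.528 CPM per kb, were near the limit of detection. The summed level of the 10 members was 463 ± 2.57 CPM in Tbk1het Tak1het and 436 ± 62.0 CPM in WT, and from 423 ± 15.02 CPM in Tbk1het Ripk1hom to 489 ± 29.5 CPM in Tak1het among the other genotypes. Dusp1 and Dusp5 together made up 20.9% ± 0.690 of the summed CPM in Tbk1het Tak1het, 8.91% ± 2.31 in the libraries labelled Tbk1het Tak1het Ripk1het and 10.5% ± 0.304 in WT. Dusp3 made up 48.6% ± 1.67 of it in Tbk1het Tak1het and 52.8% ± 0.300 in WT. Fewer cells of a type and less RNA per cell cannot be told apart in such bulk samples.

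**Figure D1:**
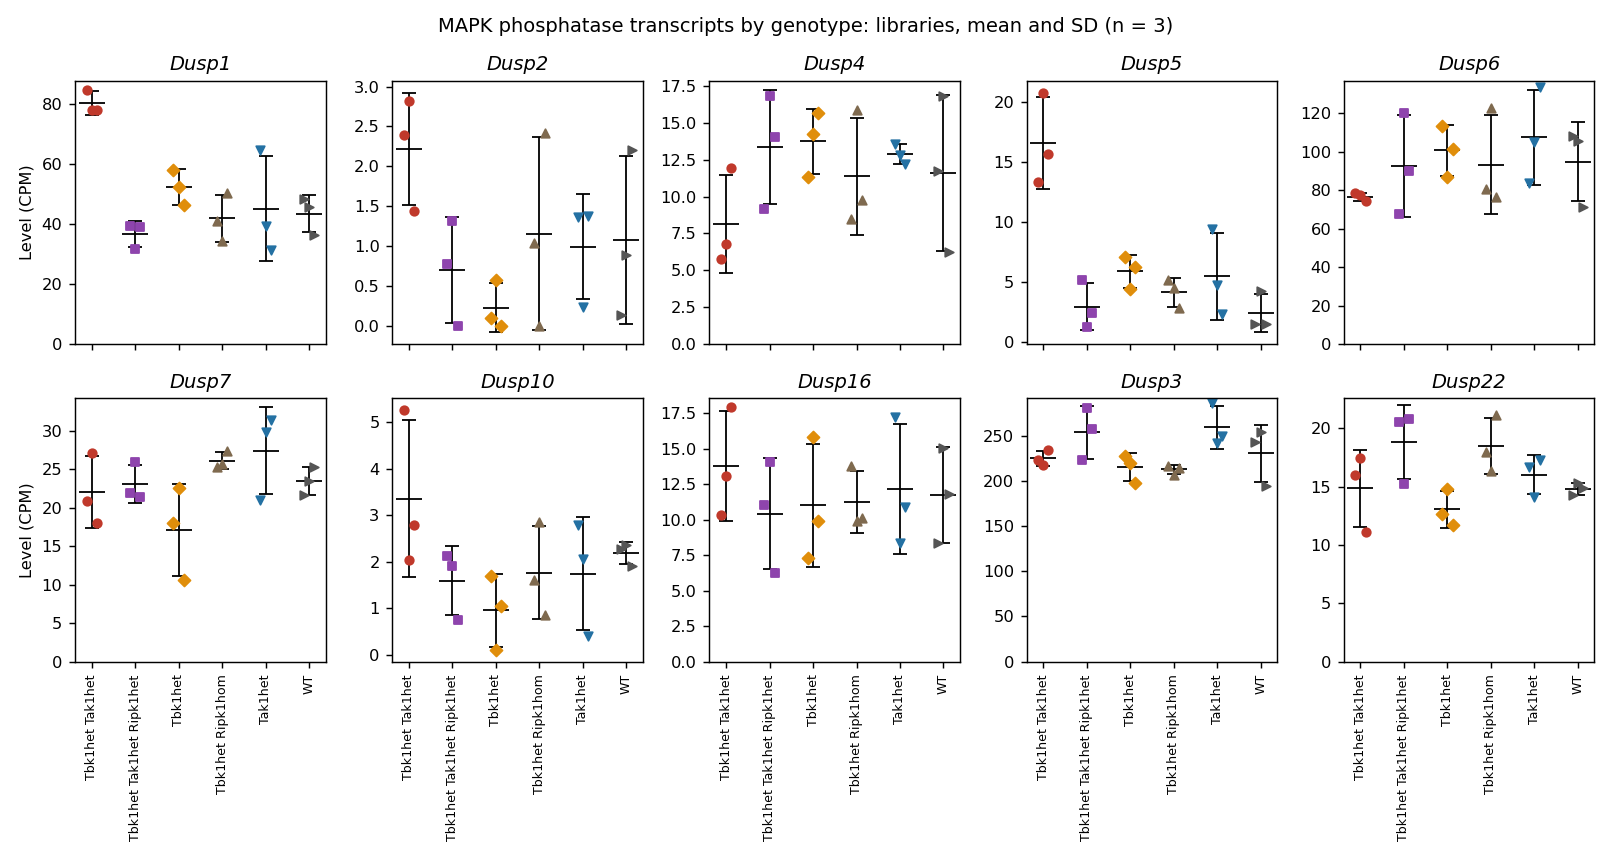
Level in CPM (counts per 1000000, TMM-scaled) of each member in each library, by genotype, with a bar at the mean and whiskers of 1 SD (n = 3). Dusp1 and Dusp5 are the 2 members with all 3 Tbk1het Tak1het libraries above the other 15.

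Dusp1 and Dusp5 were the 2 members whose 3 Tbk1het Tak1het libraries all lay above the other 15 libraries, which held for 2.54% of all tested genes. No member had this pattern for another genotype, where 0.0967% (Tbk1het Ripk1hom), 0.112% (WT), 0.141% (the libraries labelled Tbk1het Tak1het Ripk1het), 0.424% (Tak1het) and 1.09% (Tbk1het) of tested genes had it. In the overall test of the 6 genotypes the same 2 members passed (edgeR adjusted p = 0.0203 for Dusp1 and 0.0167 for Dusp5), against 7.18% of all tested genes. In Tbk1het Tak1het against WT, 2 members were called higher and 0 lower, where 6.07% of tested genes were called, 2.16% higher and 3.9% lower. Libraries did not overlap for these 2 members in the higher direction (15.2% of tested genes) and for 0 in the lower (14.4%). The median log2 fold change of the 10 was 0.12 there, against 0.0038 over all tested genes. In Tbk1het Tak1het against Tak1het, 1 member was called, higher, where 2.79% of genes were called, 0.736% higher and 2.05% lower, and DESeq2 called 2, where it called 5.61% of genes. There 3 members, Dusp1, Dusp2 and Dusp5, lay higher without overlap (12% of tested genes) and 3, Dusp3, Dusp4 and Dusp6, lower (12.5%). In Tbk1het Tak1het against Tbk1het no member was called by edgeR, although 14.7% of genes were. An unadjusted p under 0.05 was reached by 4 members and by 3846 of the 13447 tested genes. DESeq2 called 2 members there, where it called 19% of all genes. Libraries did not overlap for 4 members in the higher direction, Dusp1, Dusp2, Dusp5 and Dusp10 (17.2% of tested genes), and for Dusp6 in the lower (16.4%). The libraries labelled Tbk1het Tak1het Ripk1het set against Tbk1het Tak1het gave 2 members called, both lower, where 2.45% of genes were called, 1.84% higher and 0.617% lower. Without overlap were 0 members in the higher direction (12.8% of tested genes) and 3, Dusp1, Dusp2 and Dusp5, in the lower (11.4%). These comparisons share the Tbk1het Tak1het libraries, so their results are not independent of each other.

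Elsewhere no member was called by edgeR. Against WT, 0 genes were called for the libraries labelled Tbk1het Tak1het Ripk1het (1074 at an unadjusted p under 0.05 and 75 by DESeq2) and 0 for Tbk1het Ripk1hom (688 and 6), and no member reached an unadjusted p under 0.05 in either. Tbk1het against WT gave 7 called genes (0.0521%) and Tak1het against WT 2 (0.0149%). In each, 1 member had an unadjusted p under 0.05, Dusp5 both times, where 1373 and 1273 of 13447 genes had one. DESeq2 called 0 members in either, and 0.803% and 0.61% of genes. Tbk1het Ripk1hom against Tbk1het gave 70 called genes (0.521%). An unadjusted p under 0.05 was reached by 2 members and by 2058 of 13447 genes. DESeq2 called 0 members (3.81% of genes). Without overlap, 2 members lay higher (8.57% of tested genes) and 0 lower (8.04%). The interaction of the Tbk1 and Tak1 alleles asks whether their joint change differs from the sum of their separate changes on the log2 scale. It gave 235 called genes (1.75%) and 0 members. An unadjusted p under 0.05 was reached by 0 members and by 2250 of 13447 genes, and DESeq2 called 0 members (5.06% of genes).

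**Figure D2:**
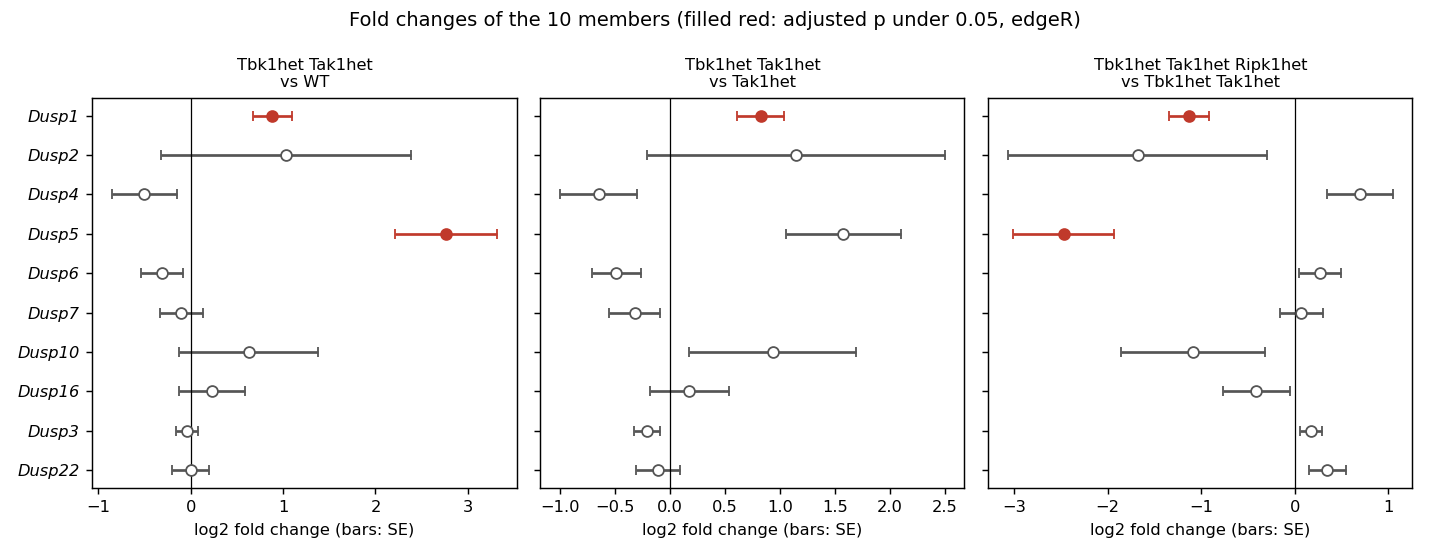
log2 fold change of each member (points) with its SE (bars) in 3 comparisons, filled red where the edgeR adjusted p is under 0.05. Dusp1 and Dusp5 are called against WT at 0.89 and 2.77, Dusp1 alone is called against Tak1het at 0.83, and both are called lower in the libraries labelled Tbk1het Tak1het Ripk1het, at -1.13 and -2.47.

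Dusp1 (ENSMUSG00000024190, chromosome 17, 26505590 to 26562128, minus strand, GRCm38) encodes MKP-1, the inducible nuclear phosphatase of p38, JNK and ERK. It had 84.8, 78.1 and 78.1 CPM in Tbk1het Tak1het, from 693 to 1600 reads. It was at 39.2, 31.7 and 39.0 CPM in the libraries labelled Tbk1het Tak1het Ripk1het, Tbk1het had 58.2, 52.5 and 46.3 CPM, and Tbk1het Ripk1hom had 41.0, 34.5 and 50.2 CPM. Tak1het had 64.9, 39.3 and 31.3 CPM, and WT had 48.4, 45.7 and 36.4 CPM. The Tbk1het Tak1het libraries lay within a narrow band above all others, and each of the remaining genotypes overlapped the next in the order of means, which ran Tbk1het, Tak1het, WT, Tbk1het Ripk1hom and Tbk1het Tak1het Ripk1het. Against WT, Dusp1 was 1.85-fold higher in Tbk1het Tak1het (log2 fold change 0.89, SE 0.21, 95% interval 0.43 to 1.34, edgeR adjusted p = 0.0211). That call held without WT replicate 1 (edgeR adjusted p = 0.0453) and was lost without any 1 of the other 5 libraries, at adjusted p-values of 0.0575 to 0.0814.

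Against Tak1het, Dusp1 was higher in Tbk1het Tak1het by a log2 fold change of 0.83 (SE 0.21, edgeR adjusted p = 0.045). Tak1het replicate 1, at 64.9 CPM, was the highest of its genotype. Without it the log2 fold change was 1.18 (edgeR adjusted p = 0.00224), and without Tak1het replicate 2 or 3 or any Tbk1het Tak1het library the call was lost (0.103 to 0.207). The call was also lost without the 5 libraries whose Tbk1 was in the WT range, none of which is in this comparison (log2 fold change 0.83, edgeR adjusted p = 0.0775). Against Tbk1het the log2 fold change of Dusp1 was 0.62 (SE 0.21, interval 0.17 to 1.07), with an edgeR adjusted p of 0.06, although the libraries did not overlap. The libraries labelled Tbk1het Tak1het Ripk1het had less Dusp1 than Tbk1het Tak1het, with a log2 fold change of -1.13 (SE 0.22, interval -1.59 to -0.68, edgeR adjusted p = 0.00922). This call was lost without replicate 2 of that label alone (edgeR adjusted p = 0.0594). Dusp1 shares 11 bases of exon with Ergic1 on the other strand, and the library chemistry does not keep strand, so reads there cannot be told apart.

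Dusp5 (ENSMUSG00000034765, chromosome 19, 53529109 to 53542431, plus strand) encodes an inducible nuclear phosphatase of ERK. It was scarce in WT and had the widest range of the well-detected members. Tbk1het Tak1het had 13.3, 20.7 and 15.7 CPM, from 184 to 315 reads. It was at 5.16, 1.32 and 2.43 CPM in the libraries labelled Tbk1het Tak1het Ripk1het, Tbk1het had 7.09, 4.40 and 6.23 CPM, and Tbk1het Ripk1hom had 5.17, 4.51 and 2.84 CPM. Tak1het had 9.44, 4.75 and 2.33 CPM, and WT had 1.52, 4.24 and 1.51 CPM, from 24 to 72 reads. All Tbk1het Tak1het libraries were above the highest library of any other genotype, Tak1het replicate 1, and the other 5 genotypes overlapped their neighbours in the order of means. The Tbk1het Tak1het mean was 6.84 times the WT mean (16.6 ± 3.80 against 2.42 ± 1.58 CPM, SD, n = 3 each). The log2 fold change was 2.77 (SE 0.55, interval 1.604 to 3.93, edgeR adjusted p = 0.00755). Dusp5 was called in 6 of 6 fits that each left out 1 library of this comparison, with log2 fold changes of 2.50 to 3.43, and 3.43 was the value without WT replicate 2.

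Both genotypes with 1 altered allele had intermediate Dusp5 means. Tbk1het had 5.91 ± 1.38 CPM and Tak1het 5.50 ± 3.61 CPM, with log2 fold changes against WT of 1.28 (edgeR adjusted p = 0.424) and 1.19 (0.493), neither called. The log2 fold change of Tbk1het Tak1het was 1.48 against Tbk1het (SE 0.52, edgeR adjusted p = 0.0647) and 1.58 against Tak1het (SE 0.52, edgeR adjusted p = 0.125). Without Tak1het replicate 1 the value against Tak1het was 2.22 (edgeR adjusted p = 0.0384). The interaction term of Dusp5 was 0.29 on the log2 scale with an interval of -1.26 to 1.85, which is too wide to show whether the joint change differs from the sum of the separate ones. For Dusp1 it was 0.56 (interval -0.07 to 1.20, edgeR adjusted p = 0.369). The libraries labelled Tbk1het Tak1het Ripk1het had less Dusp5 than Tbk1het Tak1het, with a log2 fold change of -2.47 (SE 0.54, edgeR adjusted p = 0.0205). That call held without replicate 1 of that label (log2 fold change -3.13, adjusted p = 0.0105) and was lost without any 1 of the other 5 libraries (0.0527 to 0.111). Against WT those libraries gave a log2 fold change of 0.30 for Dusp5, with an interval of -0.84 to 1.43, and of -0.25 for Dusp1, with an interval of -0.70 to 0.20. An antisense gene that overlaps 547 bases of Dusp5 exon has no row in the count table and could not be analysed, and its reads there cannot be told from those of Dusp5.

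Dusp2 encodes PAC-1, an inducible nuclear phosphatase known from activated leukocytes. It had 2.39, 2.82 and 1.44 CPM in Tbk1het Tak1het, 0.771, 1.32 and 0 CPM in the libraries labelled Tbk1het Tak1het Ripk1het, and 0.0965, 0.571 and 0 CPM in Tbk1het. Tbk1het Ripk1hom had 1.03, 0 and 2.42 CPM, Tak1het had 1.37, 0.234 and 1.37 CPM, and WT had 0.127, 0.884 and 2.20 CPM. A count of 0 allows up to 3 counts, which is 0.14 to 0.208 CPM in the 3 libraries without reads. Only 11 of 18 libraries were above the level of 0.574 CPM that the filter on low counts asks for, and the log2 fold change against WT of 1.03 had an interval of -1.82 to 3.88, so no difference was detectable at this depth. Against Tbk1het the libraries did not overlap and the log2 fold change was 3.26 (interval 0.10 to 6.42, edgeR adjusted p = 0.16).

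Dusp4 (chromosome 8, 34807297 to 34819894) encodes MKP-2, a nuclear phosphatase close to DUSP1 in sequence. It had 5.78, 6.76 and 11.9 CPM in Tbk1het Tak1het and 11.7, 16.9 and 6.27 CPM in WT, which overlap. The lowest genotype mean was that of Tbk1het Tak1het, 8.16 ± 3.31 CPM, and the highest was 13.8 ± 2.21 CPM in Tbk1het. The log2 fold changes of Tbk1het Tak1het were -0.50 against WT (interval -1.24 to 0.24), -0.74 against Tbk1het (edgeR adjusted p = 0.175) and -0.65 against Tak1het (0.394), none called.

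Dusp6 and Dusp7, the cytoplasmic ERK phosphatases, were not called in any comparison. Dusp6 (MKP-3, chromosome 10, 99263231 to 99267489), a feedback gene of ERK signaling in many tissues, had 78.4, 77.4 and 74.4 CPM in Tbk1het Tak1het and 108, 105.5 and 71.2 CPM in WT. Tak1het had 83.9, 105.2 and 133.5 CPM and Tbk1het had 113.7, 87.1 and 101.5 CPM, so that the Tbk1het Tak1het libraries lay below both without overlap. The log2 fold change was -0.49 against Tak1het (interval -0.96 to -0.01, edgeR adjusted p = 0.303), -0.39 against Tbk1het (0.27) and -0.31 against WT (interval -0.79 to 0.17). In the 8 libraries with a mitochondrial share under 0.7%, Dusp6 was 67.8 to 83.9 CPM, and in all others 87.1 to 133.5 CPM. With that share as a covariate over all 18 libraries, its log2 fold change against Tak1het was -0.05 (edgeR adjusted p = 0.955). The part of the mitochondrial share in the level of Dusp6 was not tested further. Dusp7, which prefers ERK like its relative DUSP6, had 22.04 ± 4.66 CPM in Tbk1het Tak1het and 23.5 ± 1.85 CPM in WT, a log2 fold change of -0.10 (interval -0.59 to 0.39). It had 25.4, 25.7 and 27.4 CPM in Tbk1het Ripk1hom against 18.1, 22.6 and 10.7 CPM in Tbk1het, without overlap, and its log2 fold change of 0.61 there did not pass the test (interval 0.12 to 1.10, edgeR adjusted p = 0.218). Dusp5 and Dusp6 are both ERK phosphatases, and their log2 fold changes in Tbk1het Tak1het against WT had opposite signs, of which that of Dusp5 alone was called.

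The JNK and p38 phosphatases were scarce and varied between replicates. Dusp10 (MKP-5) had 5.25, 2.03 and 2.79 CPM in Tbk1het Tak1het, 1.69, 0.114 and 1.06 CPM in Tbk1het and 2.28, 2.36 and 1.91 CPM in WT. Its log2 fold change was 0.63 against WT (interval -0.97 to 2.22) and 1.81 against Tbk1het (interval 0.15 to 3.46, edgeR adjusted p = 0.136), where the libraries did not overlap. Dusp16 (MKP-7) had 10.3, 13.1 and 17.97 CPM in Tbk1het Tak1het and 8.36, 15.1 and 11.8 CPM in WT. Its genotype means ran only from 10.4 CPM to 13.8 CPM, every genotype overlapped the next, and its adjusted p in the overall test was the largest of the 10 members (edgeR adjusted p = 0.948).

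The small phosphatases had the least spread across libraries. Dusp3 (VHR, which acts on ERK and JNK) had 223, 217 and 234 CPM in Tbk1het Tak1het and 243, 254 and 194 CPM in WT, a log2 fold change of -0.03 with a narrow interval of -0.29 to 0.22. Over all 18 libraries its highest value was 1.47 times its lowest, the smallest such ratio of the members, followed by 1.90 for Dusp22. Against Tak1het, with 287, 242 and 250 CPM, the Tbk1het Tak1het libraries lay lower without overlap, and the log2 fold change of -0.21 was not called (interval -0.46 to 0.05, edgeR adjusted p = 0.429). Dusp3 shares 604 bases of exon with the antisense gene Gm20659, which had 0 counts in every library, and reads there cannot be told apart by strand. Dusp22 (JKAP, an activator of the JNK pathway in cell studies) had 16.01, 17.5 and 11.1 CPM in Tbk1het Tak1het and 14.3, 15.3 and 14.9 CPM in WT, a log2 fold change of -0.00025 with an interval of -0.42 to 0.42. Its highest means were in both genotypes with a Ripk1 D138N allele, 18.9 ± 3.16 CPM in the libraries labelled Tbk1het Tak1het Ripk1het and 18.5 ± 2.43 CPM in Tbk1het Ripk1hom. The log2 fold change of Tbk1het Ripk1hom against Tbk1het was 0.50 (interval 0.08 to 0.92, edgeR adjusted p = 0.238) and against WT 0.32 (interval -0.10 to 0.74), neither called.

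The mitochondrial share of counts moved with the genotype in which Dusp1 and Dusp5 were highest. It was under 0.7% in 8 libraries: all 3 of Tbk1het Tak1het, Tak1het replicate 1, WT replicate 3, replicate 1 labelled Tbk1het Tak1het Ripk1het, and replicates 1 and 3 labelled Tbk1het Ripk1hom. Within these 8, Dusp1 was 78.1 to 84.8 CPM in Tbk1het Tak1het, 39.2 CPM in the library labelled Tbk1het Tak1het Ripk1het, 64.9 CPM in Tak1het and 36.4 CPM in WT. Dusp5 was 13.3 to 20.7 CPM, 5.16 CPM, 9.44 CPM and 1.51 CPM in the same libraries. A fit to these 8 alone has 1 WT library, assumed to vary like the other genotypes, so only its log2 fold changes are given. For Tbk1het Tak1het against WT they were 1.10 for Dusp1 and 3.40 for Dusp5. Against Tak1het, also with 1 library, they were 0.31 for Dusp1 and 0.81 for Dusp5. With the mitochondrial share as a covariate over all 18 libraries, Dusp1 was at 0.61 (edgeR adjusted p = 0.201) and Dusp5 at 2.41 (0.0737) against WT, neither called, and the share of all genes called in that comparison was 1.61% with the covariate against 6.07% without it. Against Tbk1het, the log2 fold changes with the covariate were 0.11 for Dusp1 (edgeR adjusted p = 0.929) and 0.87 for Dusp5 (0.724). Without it they were 0.62 and 1.48. Mitochondrial shares of Tbk1het, 1.82% to 2.20%, did not overlap those of Tbk1het Tak1het, 0.367% to 0.512%. Against Tak1het, the covariate gave 0.65 for Dusp1 (edgeR adjusted p = 0.191), no longer called, and 1.40 for Dusp5 (0.327). For the libraries labelled Tbk1het Tak1het Ripk1het against Tbk1het Tak1het the covariate left both calls in place, at -1.01 for Dusp1 (edgeR adjusted p = 0.0138) and -2.38 for Dusp5 (0.0317). The part of the mitochondrial share in these differences was not tested beyond these fits.

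**Figure D3:**
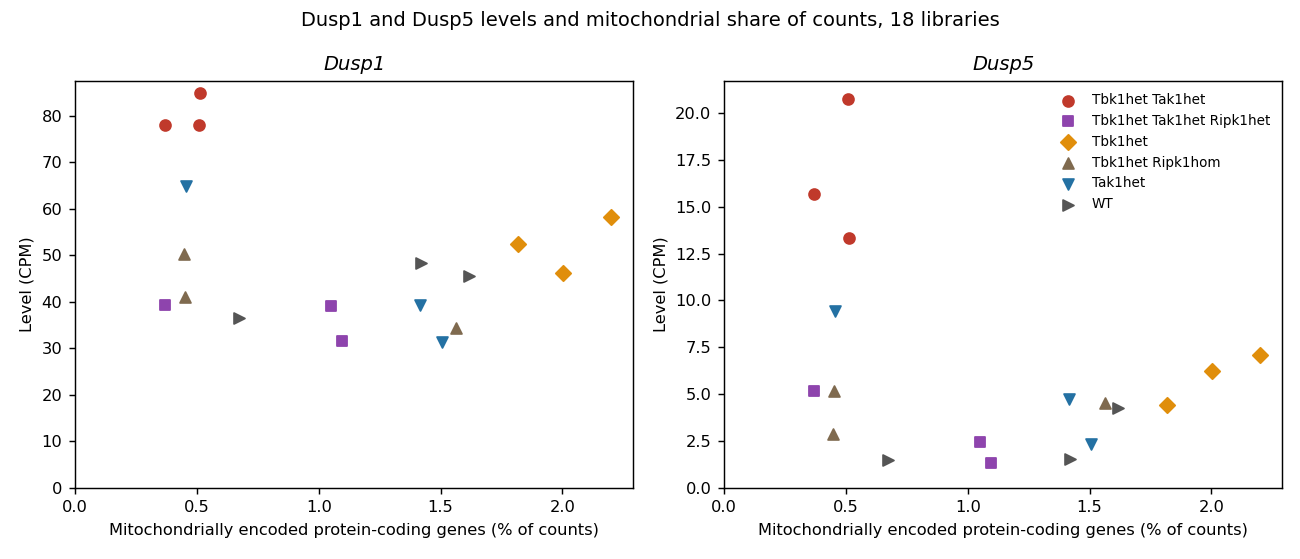
Level in CPM of Dusp1 (left) and Dusp5 (right) against the share of counts from mitochondrially encoded protein-coding genes, 1 point for each of 18 libraries, with genotype by color and shape. Tbk1het Tak1het and Tak1het replicate 1 combine a share of 0.367% to 0.512% with the highest levels. Other libraries with a share under 0.7% have 36.4 to 50.2 CPM of Dusp1 and 1.51 to 5.17 CPM of Dusp5. The lower ends, 36.4 and 1.51 CPM, are those of WT replicate 3, whose share is 0.671%.

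In Tbk1het Tak1het against WT no other gene of the phosphatase family was called higher. Of 22 other dual-specificity family genes 17 were tested, and 0 of them were called higher and 2 lower, with a median log2 fold change of 0.0049. Dusp18, a small atypical member, had 2.41 ± 0.345 CPM in Tbk1het Tak1het and 6.18 ± 0.950 CPM in WT (log2 fold change -1.35, edgeR adjusted p = 0.04), and lost the call in 6 of 6 fits without 1 library. Ssh2, a slingshot phosphatase that acts on cofilin, had 46.1 ± 2.80 CPM in Tbk1het Tak1het and 73.3 ± 10.6 CPM in WT (log2 fold change -0.67, edgeR adjusted p = 0.0417), and kept the call in 1 of 6. With the mitochondrial covariate Dusp18 was at a log2 fold change of -1.28 (edgeR adjusted p = 0.144) and Ssh2 at -0.46 (0.284), neither called. Against Tbk1het 1 other family gene was called higher, Ssh1, a further slingshot phosphatase (29.9 ± 7.70 CPM in Tbk1het Tak1het, 13.7 ± 3.09 CPM in Tbk1het, log2 fold change 1.13, edgeR adjusted p = 0.0143), and Dusp18 and Ssh2 were called lower.

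Kinases of the pathways that these enzymes act on showed no calls in the same comparison, with 0 of 21 genes of the ERK arm (median log2 fold change 0.05) and 0 of 20 tested genes of the JNK and p38 arm (median 0.09) called by edgeR. At an alternative setting the ERK arm gave up to 2 calls, with DESeq2, which called 10.8% of all genes. Among 15 tested feedback inhibitors outside the family, 1 was higher and 1 lower. Ptpn7, a tyrosine phosphatase of ERK and p38 in blood cells, fell to 9.27 ± 2.79 CPM in Tbk1het Tak1het, against 25.4 ± 0.430 CPM in WT (log2 fold change -1.47, SE 0.23, edgeR adjusted p = 0.00171). This call held in 6 of 6 fits without 1 library and with the mitochondrial covariate (-1.39, edgeR adjusted p = 0.0134). In the libraries labelled Tbk1het Tak1het Ripk1het Ptpn7 was at 32.8 ± 8.21 CPM, a log2 fold change of 1.84 against Tbk1het Tak1het (edgeR adjusted p = 0.000404). Zfp36, whose product destabilizes cytokine mRNA, was higher in Tbk1het Tak1het (94.6 ± 4.59 CPM against 53.0 ± 14.4 CPM in WT, log2 fold change 0.84, edgeR adjusted p = 0.0437) and kept the call in 1 of 6 fits without 1 library. With the mitochondrial covariate Zfp36 was at a log2 fold change of 0.37 (edgeR adjusted p = 0.251), not called. In the fit to the 8 libraries with a low mitochondrial share it was at 0.42.

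Of 18 tested ERK-responsive transcripts 1 was called, higher, with a list median of 0.27 against 0.0038 over all tested genes. Fos, an immediate early AP-1 subunit, had 283 ± 10.3 CPM in Tbk1het Tak1het and 149.9 ± 44.7 CPM in WT (log2 fold change 0.91, edgeR adjusted p = 0.0276), and kept the call in 1 of 6 fits without 1 library. With the mitochondrial covariate Fos was at a log2 fold change of 0.54 (edgeR adjusted p = 0.187), not called. In the fit to the 8 libraries with a low mitochondrial share it was at 0.44. The list of 17 JNK and p38 transcription factors and stress targets was, like the others, drawn up with earlier results of these data known. Of its genes 6 were called higher and 0 lower, against 2.16% and 3.9% of all tested genes, with a list median of 0.49. Which pathway lies behind these changes was not tested. Ddit3, which encodes the stress factor CHOP, had 40.5 ± 1.44 CPM in Tbk1het Tak1het and 11.4 ± 2.26 CPM in WT (log2 fold change 1.82, SE 0.28, edgeR adjusted p = 0.00171). It was called in 6 of 6 fits without 1 library and with the mitochondrial covariate (edgeR adjusted p = 0.0181). In the libraries labelled Tbk1het Tak1het Ripk1het Ddit3 was at 14.5 ± 2.05 CPM, a log2 fold change of -1.48 against Tbk1het Tak1het (edgeR adjusted p = 0.00901). Gadd45b, a stress-induced regulator of p38 and JNK signaling, had 24.1 ± 4.97 CPM in Tbk1het Tak1het and 5.85 ± 1.03 CPM in WT (log2 fold change 2.04, edgeR adjusted p = 0.0116), and lost the call without WT replicate 1 or 2. Jun (0.51) and Atf3 (0.71), 2 more AP-1 family members, were called too, as were Gadd45a and Atf4, named here after their values were seen, and all 4 lost the call in 6 of 6 fits without 1 library (edgeR adjusted p up to 0.144). With the mitochondrial covariate, under which fewer of all genes were called, Ddit3 alone of the 6 was called (log2 fold change 1.44). The log2 fold changes of the other 5 were then 0.60 for Jun, 0.61 for Atf3, 0.93 for Atf4, 1.78 for Gadd45b and 2.12 for Gadd45a, against 0.51, 0.71, 1.00, 2.04 and 2.46 without it. The fit to the 8 libraries with a low mitochondrial share holds 1 WT library, which leaves no replicate check of WT. Its log2 fold changes were 1.70 for Ddit3, 0.70 for Jun, 0.72 for Atf3, 1.51 for Atf4, 1.73 for Gadd45b and 2.54 for Gadd45a.

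**Figure D4:**
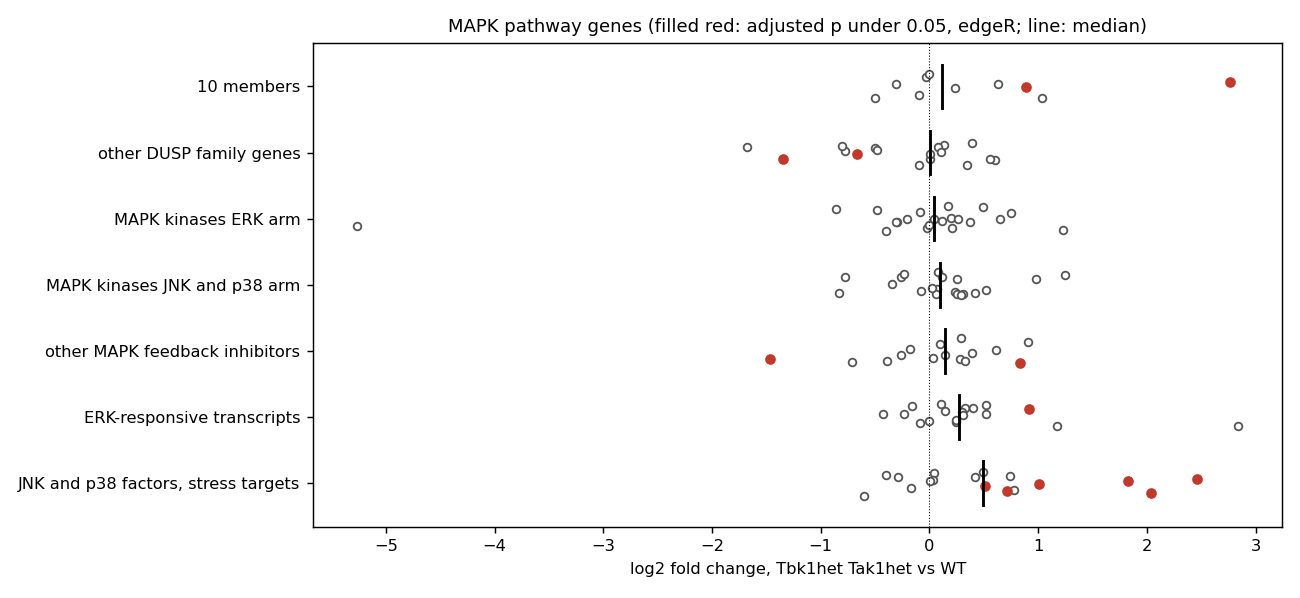
log2 fold change in Tbk1het Tak1het against WT of the 10 members and of the tested genes of 6 MAPK pathway lists, 1 point a gene (filled red where the edgeR adjusted p is under 0.05), with a line at each list's median. The list of JNK and p38 factors and stress targets has 6 called genes, all higher, and both kinase lists have none.

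Across the 18 libraries Dusp1 and Dusp5 varied together, with a Pearson r of 0.83 on the log2(CPM + 1) scale and 0.53 after each genotype's mean was subtracted. The libraries share genotype, depth and mitochondrial share, so these values describe the set. Beyond the family, the patterns most like that of Dusp1 were those of Ifrd1 (r = 0.86), Mapk6, which encodes the atypical kinase ERK3 (0.84), and Ddit3 (0.83). Those most like Dusp5 were Pspc1, a paraspeckle protein gene (0.91), Odc1, the first enzyme of polyamine synthesis (0.87), and Gspt1, a translation termination factor (0.87). For Dusp6 they were Ostc (0.89), Ndufa1 (0.89) and Ankrd37 (0.89), and for Dusp4 Haus8 (0.88), Bhlhe40 (0.87) and the glycolytic Aldoa (0.84). Dusp3 was most like Taldo1 (0.85), P2ry2 (0.85) and Cd63 (0.83), and Dusp7 most like Neurl2 (0.87), Tox2 (0.83) and Slc46a3 (0.83). The closest patterns were weaker for Dusp22 (Dffa, 0.79), Dusp10 (Dennd6b, 0.79) and Dusp16 (Ftsj3, 0.74), while that of Dusp2 was Metap1d (0.83). Among the members themselves, Dusp4 and Dusp6 had an r of 0.65 over all libraries and 0.57 after the genotype means were subtracted, and Dusp2 and Dusp4 had -0.63 and -0.47.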

How the data were processed

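RNA was sequenced as oligo(dT)-primed Smart-seq2 libraries, which keep no strand, in 18 libraries of 6 genotypes. The deposited values are raw counts of reads per gene, aligned by the authors with STAR to mm10 and counted with featureCounts per the submitters' processing notes. Per the labels' protocols, RSEM was used instead. The values were whole numbers and were used as counts. Versions, annotation and strand setting are not given in the sources used here. Symbols, positions and exon lengths came from GENCODE M21 (GRCm38), which matched 50462 of 50686 identifiers, and the other 224 took up to 0.00437% of a library's counts.

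Genes passing filterByExpr (13447) were scaled by TMM. CPM is counts per 1000000 of the scaled total. The quasi-likelihood test of edgeR 4.0.16 (R 4.3.3) was fitted once to all 18 libraries with a term for each genotype, and p-values were adjusted by Benjamini-Hochberg over all tested genes of a comparison, with a call at an adjusted p under 0.05. An overall test, 9 comparisons and 1 interaction were made. Intervals are 95%. A count of 0 was taken as up to 3 counts. Without molecular identifiers, floors cover counting error only. Mitochondrial share is the share of counts of the protein-coding genes of the mitochondrial genome. Replicates of every genotype differed by more than counting noise.

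Alternatives were DESeq2 1.42.0, its size factors in edgeR, no filter, a filter at a mean of 5 CPM, a block for replicate number and leaving out each library. Added after seeing the data were a mitochondrial covariate, the fit to 8 libraries with a share under 0.7%, and a fit without the 5 libraries labelled Tbk1+/- with Tbk1 in the WT range. Members, pathway lists and marker lists were chosen with earlier results of these data known. Named were all members, up to 4 called genes of each list against WT and up to 2 elsewhere, and the 3 genes most like a member by Pearson r, besides those the text says were named after their values were seen. Replicate numbers did not pair libraries.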

Additional observations from a re-analysis of the deposited data

How the results depend on the processing

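This check kept only member fold changes with an unadjusted edgeR p under 0.05 in the main fit. The alternatives reuse the same libraries or a part of them, so a change of sign was unlikely from the start, and none was seen. Of the values, 165 kept their side of the threshold, 22 lost a call and 12 gained one. The cause was not tested where none is named. The 165 include values uncalled in both fits, so they do not count calls kept. In the fits without 1 library, the Dusp1 call was kept in 1 of 6 against WT and 1 of 6 against Tak1het. That of Dusp5 against WT was kept in 6 of 6. For the libraries labelled Tbk1het Tak1het Ripk1het against Tbk1het Tak1het, Dusp1 kept its call in 5 of 6 and Dusp5 in 1 of 6. DESeq2 called 2 members in Tbk1het Tak1het against Tbk1het (19% of all genes, 14.7% with edgeR), 2 against Tak1het (5.61%, 2.79% with edgeR), and 2 ERK arm genes against WT (10.8%, 6.07% with edgeR). Without a low-count filter 3 members were called against Tbk1het (8.79% of genes) and 2 against Tak1het (3.22%). Against WT that setting (5.22% of genes) called 1 gene each of the other DUSP family, the ERK arm and the JNK and p38 arm, and 2 ERK-responsive genes. With the stricter filter, which left 8931 genes and 8 members, 2 members were called against Tbk1het (23.3% of genes) and 1 ERK arm gene against WT (11.2%). The replicate block gave 1 member (Dusp1) against Tbk1het in place of 0 (14.5% of genes) and changed no other count of members. Against WT it gave 0 other DUSP family genes and 1 ERK arm gene (5.99% of genes). Same-numbered libraries did not deviate together in any comparison, with correlations of -0.239 to 0.191, so the numbers are not taken as pairs.

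The mitochondrial covariate left 1 member in the overall test (183 of all genes, 966 without it), 0 against WT (216 and 816) and 0 against Tak1het (150 and 375). Against WT it left 0 other DUSP family, 1 feedback and 0 ERK-responsive genes, and 1 of the list of JNK and p38 factors and stress targets. Without the 5 libraries with Tbk1 in the WT range, which also gives fewer degrees of freedom, 0 members were called against Tak1het (1.74% of all genes). Against WT that fit called 0 other DUSP family genes and 3 of the list of JNK and p38 factors and stress targets (4.63% of all genes). The overall test was not run there, since it removes a genotype. The fit to the 8 libraries with a low mitochondrial share has 1 library of WT, 1 of Tak1het and 1 labelled Tbk1het Tak1het Ripk1het. Calls against these have no replicate check, so no count of them is given here. Tbk1het has no library there.

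Leaving out each library in turn, the members called ranged from 0 to 2 in the overall test (2.27% to 9.46% of all genes). They ranged from 1 to 2 for Tbk1het Tak1het against WT (2.05% to 4.33%) and from 0 to 2 against Tak1het (0.785% to 4.03%). For the libraries labelled Tbk1het Tak1het Ripk1het against Tbk1het Tak1het they ranged from 0 to 2 (0.615% to 3.07%). In the interaction they ranged from 0 to 1 (0.325% to 5.04%), where Dusp1 was called without Tak1het replicate 1 (2.93%). Against WT the lists ranged from 0 to 1 for other DUSP family genes and 0 to 1 for the ERK arm. Feedback genes ranged from 1 to 2, ERK-responsive genes from 0 to 1, and the list of JNK and p38 factors and stress targets from 1 to 2. Depth limits Dusp2 and Dusp10, whose intervals span more than any change called here.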
